A study of Homo sapiens with 6 samples.

Results

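The 10 genes described here are 6 aldehyde dehydrogenases, ALDH1A1, ALDH1A3, ALDH3A1, ALDH3B1, ALDH3B2 and ALDH2, and 4 surface proteins used as stem cell markers, CD44, CD24, PROM1 and EPCAM. They were taken by symbol from the raw count tables, which list 26484 gene symbols, and all 10 were found. Of the 10, 9 passed the filter on low counts and were tested among 11517 genes; ALDH2 did not pass. RNA was sequenced from MCF10CA1a cells, a tumour-forming line of the MCF10A human breast epithelial lineage, on soft culture dishes. The groups were 3 libraries from gels of 8000 Pa and 3 from gels of 500 Pa, numbered 1 to 3 in each group. Gels of both stiffnesses carried growth factor-reduced Matrigel, cells of both groups had the same serum-containing medium, and RNA labelled cytosolic was isolated on day 5. The libraries come from a single cell line, and the labels call the 3 replicates biological without saying whether equal numbers shared a day.

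Aldehyde dehydrogenases oxidise aldehydes to carboxylic acids with NAD or NADP. The ALDH1A enzymes turn retinaldehyde into retinoic acid, a ligand of nuclear receptors, and their activity is what the dye-based assay for breast stem and progenitor cells reads, with ALDH1A1 and ALDH1A3 as its main contributors. ALDH3 enzymes clear medium- and long-chain and aromatic aldehydes, and ALDH2 is the mitochondrial enzyme that removes acetaldehyde. CD44 is a hyaluronan receptor, CD24 a small sialylated surface glycoprotein, PROM1 (CD133) a protein of membrane protrusions and EPCAM an epithelial adhesion molecule; breast cancer cells with high CD44 and low CD24 at the surface have long been used as a stem-like fraction. Transcript levels in bulk RNA say nothing about how many cells carry each protein, and fewer cells with a transcript and less of it per cell cannot be told apart.

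Total counts ran from 9068926 to 10739449 in the 8000 Pa libraries and from 8305601 to 18779742 in the 500 Pa libraries. Levels below are CPM, counts scaled to library size with TMM normalization. Some libraries stood apart by base composition. Over 11003 genes (genes are no replicates), Spearman's rho between transcript GC content and the deviation of a library from the mean of all 6 was -0.77 in 8000 Pa replicate 1, 0.69 in 8000 Pa replicate 3 and 0.54 in 500 Pa replicate 3, against -0.14 to -0.06 in the others. All 12 breast epithelial markers were tested, with keratins at the top (KRT8 at 9049 ± 3220 CPM at 8000 Pa and 11240 ± 3605 CPM at 500 Pa; SD, n = 3 each). The leukocyte markers PTPRC and CD3E and the fibroblast markers COL1A2, COL3A1 and LUM had 0 counts in all 6 libraries. The leukocyte markers CD14, CD68 and LYZ passed the filter on low counts, with CD68 the most abundant of them. The summed level of the 6 leukocyte markers was 26.3 to 47.0 CPM at 8000 Pa and 24.0 to 50.5 CPM at 500 Pa, and that of the 6 fibroblast markers 0.957 to 4.64 CPM at 8000 Pa and 0.949 to 1.86 CPM at 500 Pa. The 6 endothelial markers summed to 212 to 257 CPM at 8000 Pa and 100.1 to 155 CPM at 500 Pa, nearly all of it PECAM1, while TEK had 0 counts and VWF 7 in all.

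ALDH1A1 and ALDH1A3 belong to the same subfamily and share no run of 50 bases between their annotated transcripts. Their promoters, the 250 bases before the transcription start in RefSeq (GRCh38.p14), are printed because ALDH1A3 held most of the ALDH1A transcripts and ALDH1A1 was the only member whose libraries did not overlap between the gels. ALDH1A1 lies on the minus strand (window chr9:72953054-72953303) and ALDH1A3 on the plus strand (window chr15:100879581-100879830). Both windows lie inside the GENCODE 29 gene spans given below, so that annotation has starts farther upstream for both genes. Capitals mark CCAAT boxes (CCAAT) and GC boxes (GGGCGG), each on either strand, with overlapping matches marked once.
ALDH1A1: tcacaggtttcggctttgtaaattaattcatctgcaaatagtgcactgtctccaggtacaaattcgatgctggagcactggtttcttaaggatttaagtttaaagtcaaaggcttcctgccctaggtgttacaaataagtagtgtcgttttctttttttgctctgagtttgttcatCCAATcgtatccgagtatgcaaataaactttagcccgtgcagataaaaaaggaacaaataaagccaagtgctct
ALDH1A3: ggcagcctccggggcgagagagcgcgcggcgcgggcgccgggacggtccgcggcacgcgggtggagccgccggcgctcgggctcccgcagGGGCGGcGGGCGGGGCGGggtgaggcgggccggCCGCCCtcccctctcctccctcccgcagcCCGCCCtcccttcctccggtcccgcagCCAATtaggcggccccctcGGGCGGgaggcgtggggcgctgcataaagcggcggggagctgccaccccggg
The ALDH1A1 window was 38.4% G and C and the ALDH1A3 window 82.4%, where the median of all promoter windows was 58.0%. Each held 1 CCAAT box, a motif found in 32.0% of 35116 RefSeq promoter windows of this length. The ALDH1A3 window held 6 GC boxes and the ALDH1A1 window 0, and 42.6% of all windows had at least 1. Neither window held the TATA box TATAAA (10.7% of all windows) or the antioxidant response element core TGACNNNGC (10.9%); motif matches are a description of these letters only. RefSeq windows were found for 6 of the 10 genes, namely these and ALDH3B1, CD44, CD24 and PROM1.

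Per kilobase of exon, the 10 genes fell into levels far apart. ALDH1A3 averaged 123 CPM per kb over the 6 libraries (range 65.2 to 198), CD44 103 (79.8 to 118), EPCAM 93.7 (54.9 to 137) and CD24 59.5 (40.1 to 78.8). Each of these 4 overlapped its neighbour in the order, so the order among them is within the spread of the libraries. The 3 ALDH3 genes came next, at 9.10 CPM per kb for ALDH3B2, 8.94 for ALDH3A1 and 8.75 for ALDH3B1, with ranges that overlapped one another and lay below every library of CD24. ALDH1A1 averaged 2.50 CPM per kb (1.29 to 5.10, overlapping the ALDH3 genes), PROM1 0.276 (0.150 to 0.539) and ALDH2 0.0414 (0 to 0.115), with no overlap between ALDH1A1 and PROM1 or between PROM1 and ALDH2. The ALDH transcript pool of these cells was thus led by ALDH1A3, with ALDH1A1 a minor part of it and ALDH2 close to the detection limit.

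**Figure D1:**
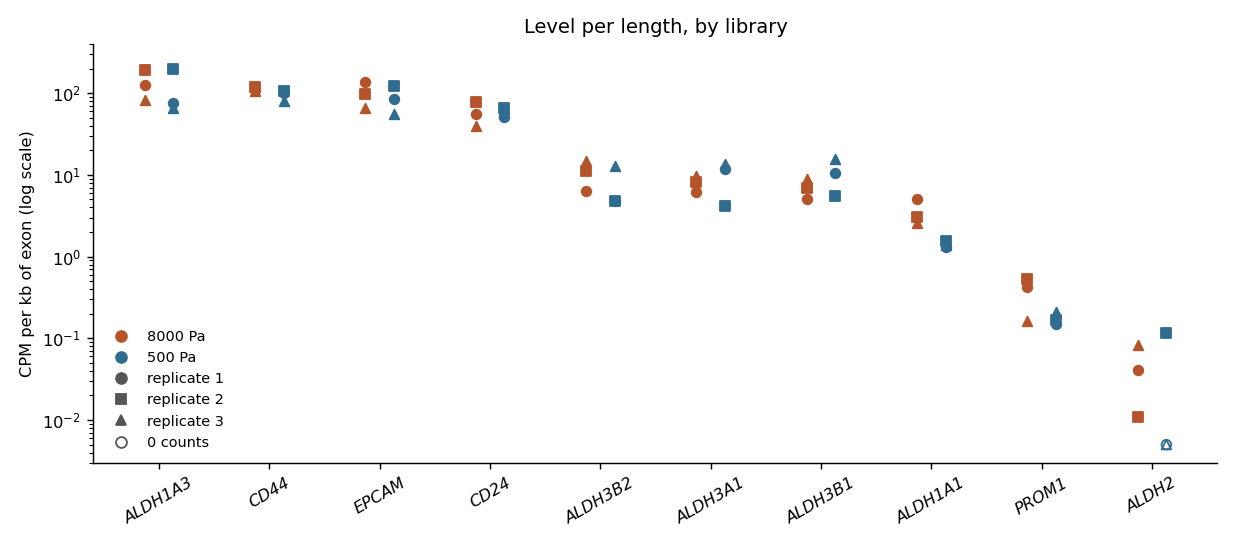
TMM-scaled CPM per kb of annotated exon (log axis) for the 10 genes in each library, with 8000 Pa left of 500 Pa for each gene and the marker giving the replicate number; open markers are libraries with 0 counts, drawn at a fixed low position. ALDH1A3, CD44, EPCAM and CD24 lie above 40 CPM per kb in every library, the ALDH3 genes between 4.16 and 15.6, and PROM1 and ALDH2 below 1.

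ALDH1A1, which makes retinoic acid and spans 72900662 to 73080442 on the minus strand of chromosome 9 (GRCh38, GENCODE 29, as for all positions of genes below), had, with all 6 libraries, the largest log2 fold change between stiff and soft gels of the tested members. It had 14.5, 8.76 and 7.37 CPM in 8000 Pa replicates 1, 2 and 3, against 3.68, 4.47 and 3.997 CPM in 500 Pa replicates 1, 2 and 3. All 3 stiff-gel libraries were higher than all 3 soft-gel libraries, and replicate 1 on stiff gel was the highest. The means were 10.2 ± 3.79 CPM at 8000 Pa and 4.05 ± 0.394 CPM at 500 Pa (SD, n = 3 each). With stiffness as the only term, edgeR's quasi-likelihood test gave a log2 fold change of 1.34 (SE 0.40), an unadjusted p of 0.00498 and a Benjamini-Hochberg adjusted p of 1.00 over 11517 genes. A second fit, the paired fit, added the replicate number as a block and gave 1.30 (SE 0.37) and an adjusted p of 0.0612, so ALDH1A1 passed the 0.05 threshold in neither fit. Its place ahead of PROM1 depended on single libraries: the log2 fold changes were 1.00 for ALDH1A1 and 1.01 for PROM1 without 8000 Pa replicate 1, and 1.55 for ALDH1A1 and 1.65 for PROM1 in the paired fit without replicate 3.

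Differences in log2 CPM within replicates 1, 2 and 3 were 1.93, 0.94 and 0.85 for ALDH1A1. The largest came from the pair holding 8000 Pa replicate 1, the library richest in low-GC transcripts. ALDH1A1 has the lowest GC content of the 10 genes, 41.9%. Over 11003 genes, Spearman's rho between the pair difference and GC content was -0.61, 0.06 and 0.02 in replicates 1, 2 and 3. The part of GC content in the ALDH1A1 differences was not tested. Without 8000 Pa replicate 1 the unpaired log2 fold change of ALDH1A1 was 1.00. With a GC offset for each library it was 1.18 (SE 0.28), or 1.19 (SE 0.30, adjusted p = 0.0701 by edgeR) in the paired fit. The count behind it was small, 339 reads at 8000 Pa and 134 at 500 Pa over 3 libraries each, which by counting error alone allows 9.48 to 11.8 CPM at 8000 Pa and 3.31 to 4.69 CPM at 500 Pa (exact Poisson 95% intervals).

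**Figure D2:**
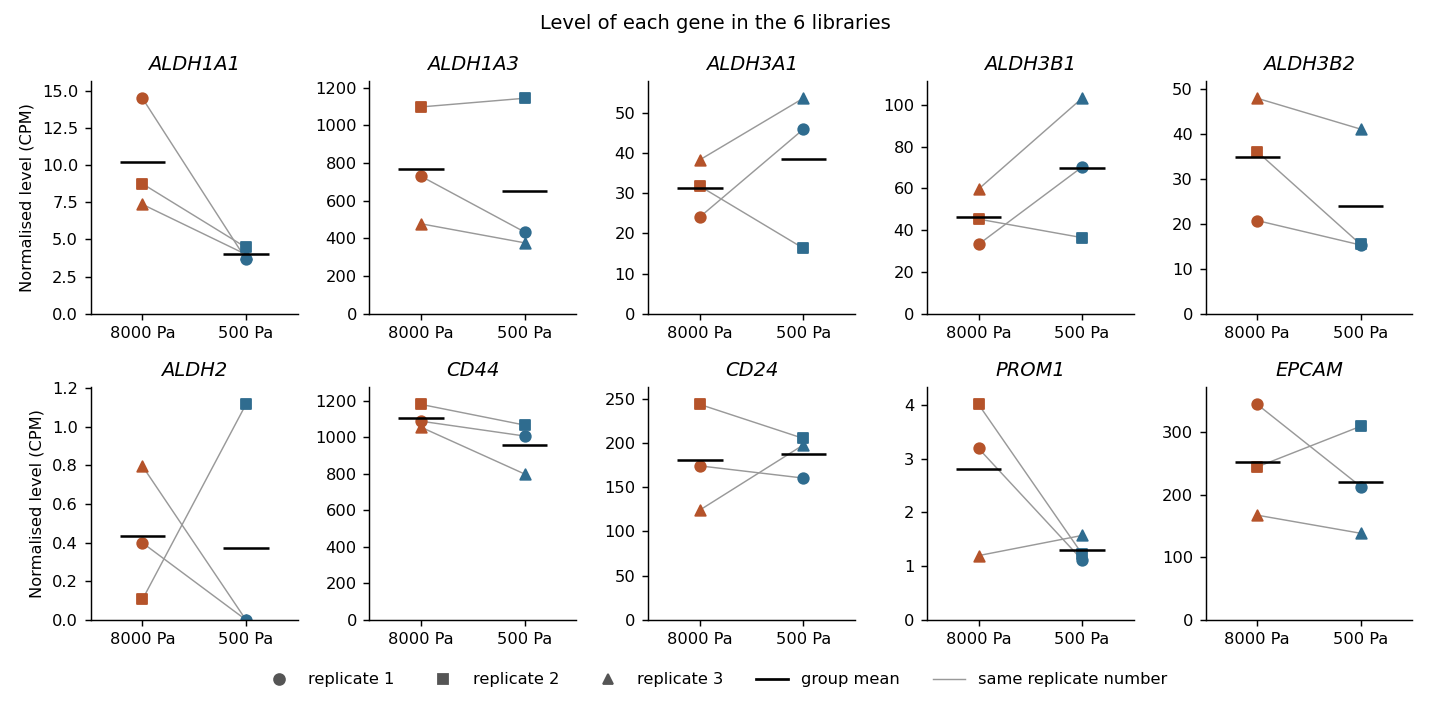
TMM-scaled CPM (linear axes from 0) of each gene in the 3 libraries at 8000 Pa and the 3 at 500 Pa; markers give the replicate number, grey lines join equal numbers and black bars are group means. ALDH1A1 is the only gene of the 10 with all 3 libraries at 8000 Pa (7.37 to 14.5 CPM) above all 3 at 500 Pa (3.68 to 4.47 CPM).

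None of the 9 tested members passed an FDR of 0.05 by stiffness, in the unpaired edgeR fit (0 of 9, with 0% of all tested genes called) or in the paired fit (0 of 9, with 0.53% of all tested genes called, 0.26% higher and 0.269% lower). At an unadjusted p under 0.05, 1 of 9 stood out unpaired, where 2.45% of all tested genes did, and 3 of 9 paired (ALDH1A1, ALDH3B1 and ALDH3B2), where 10.6% did. DESeq2 and limma-voom also called 0 of 9. Groups did not overlap for ALDH1A1 alone, higher at 8000 Pa, which held for 4.02% of all tested genes; 2.85% were lower without overlap and 6.87% either. The median log2 fold change of the 9 was 0.21 unpaired and 0.22 paired, against 0.01 and -0.01 over all tested genes. The unpaired edgeR p-values measure only the spread between 3 cultures a group, with 4 residual degrees of freedom per gene and 9.02 borrowed from all genes. The paired p-values concern the spread of differences within replicate numbers, with 2 residual degrees of freedom. They rest on a single trend of spread shared by all genes. They also rest on a pairing that was taken up because same-numbered libraries correlated in these same data.

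**Figure D3:**
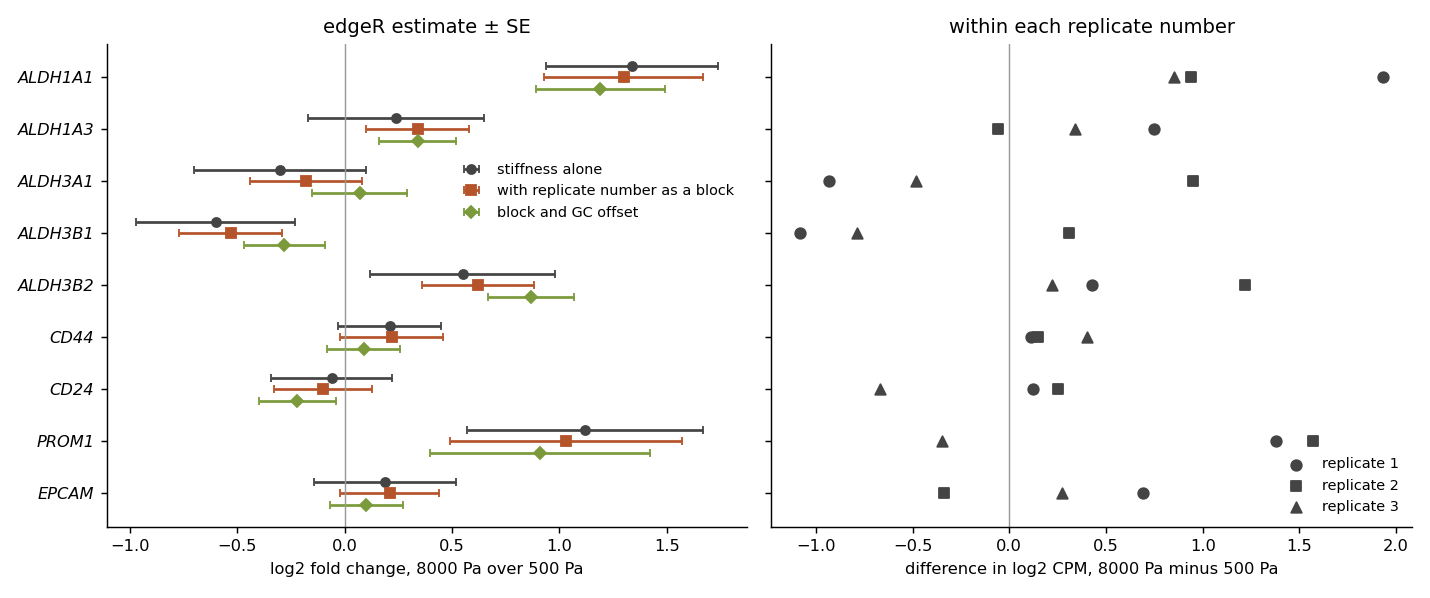
Left, log2 fold change of 8000 Pa over 500 Pa ± SE for the 9 tested genes from edgeR with stiffness alone, with the replicate number as a block, and with the block and a GC offset; right, the difference in log2 CPM within each replicate number. ALDH1A1 sits at 1.34, 1.30 and 1.19 and PROM1 at 1.12, 1.03 and 0.91, while ALDH3B1 lies below 0 in all 3 fits and CD44 between 0.09 and 0.22.

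ALDH1A3, the most abundant aldehyde dehydrogenase here, passed the test of replicate number and not that of stiffness. It had 729, 1098 and 477 CPM in 8000 Pa replicates 1 to 3 and 434, 1144 and 376 CPM in 500 Pa replicates 1 to 3. Replicate 2 was the highest library at both stiffnesses and replicate 3 the lowest, and the groups overlapped. Means were 768 ± 312 CPM at 8000 Pa and 651 ± 428 CPM at 500 Pa (SD, n = 3 each), with a paired log2 fold change of 0.34 (SE 0.24, adjusted p = 0.678 by edgeR). The test of replicate number, with stiffness in the model, gave F = 12.6 and an adjusted p of 3.48e-04 by edgeR. With a GC offset that adjusted p was 0.00149, but it was 0.165 without 500 Pa replicate 3, 0.179 without 500 Pa replicate 2 and 0.287 without 8000 Pa replicate 3. The gene spans 100877714 to 100916626 on the plus strand of chromosome 15, and 1585 bases of its exons overlap an antisense gene, AC015712.2, whose reads cannot be told apart where counting ignores strand.

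By replicate number 4 of the 9 tested members passed, where 14.7% of all tested genes did: ALDH1A3, ALDH3B2, ALDH3B1 and EPCAM. With the GC offset 1 of the 9 passed, ALDH1A3, where 4.19% of all tested genes did. Without 500 Pa replicate 3 or 8000 Pa replicate 3 the count was 0 of 9, where 128 and 81 of all tested genes passed, and without 500 Pa replicate 2 it was 1 of 9, where 739 passed. The test was reported because same-numbered libraries correlated in these same data. These calls, that of ALDH1A3 included, are therefore no separate evidence that equal numbers are pairs. Whether equal numbers mark a shared culture day or RNA batch is not stated in the labels, and the part of either was not tested.

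**Figure D4:**
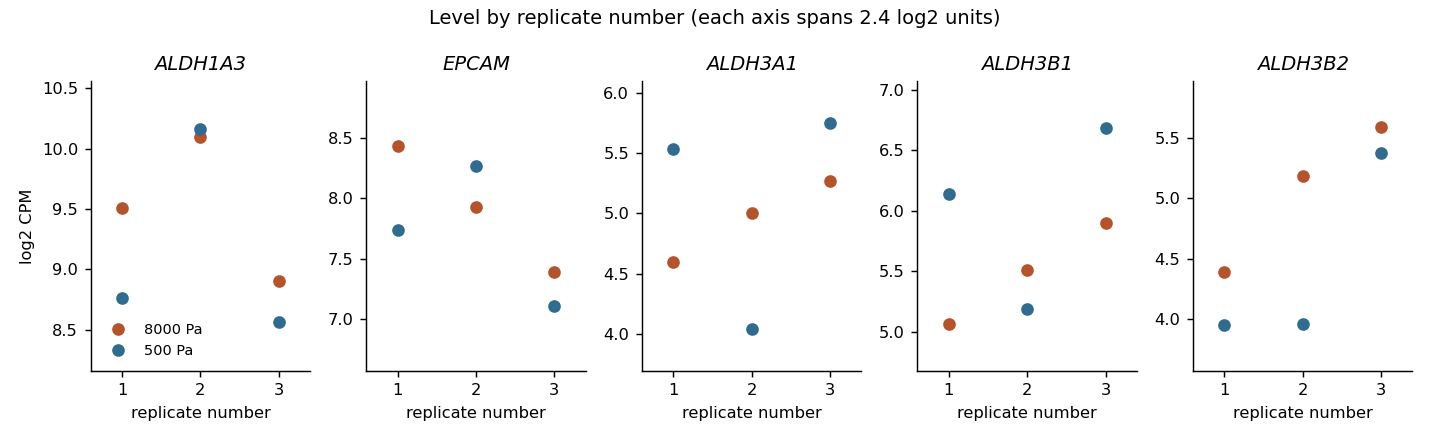
log2 CPM of 5 members by replicate number, at 8000 Pa and at 500 Pa; every axis spans 2.4 log2 units. ALDH1A3 peaks in replicate 2 at both stiffnesses (10.10 and 10.16), while EPCAM and ALDH3B2 have their lowest and their highest library in replicate 3 at both.

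ALDH3A1, a cytosolic enzyme of aromatic and lipid-peroxide aldehydes, had 24.1, 31.8 and 38.3 CPM in 8000 Pa replicates 1 to 3 and 45.9, 16.3 and 53.7 CPM in 500 Pa replicates 1 to 3. ALDH3B1, a membrane-bound enzyme of long-chain aldehydes, had 33.2, 45.3 and 59.6 CPM at 8000 Pa and 70.2, 36.4 and 103 CPM at 500 Pa. Both were lower on stiff gel in replicates 1 and 3 and higher in replicate 2, so their groups overlapped. For ALDH3A1 the paired log2 fold change was -0.18 (SE 0.26, adjusted p = 0.884 by edgeR) and with the GC offset 0.07. ALDH3B1 gave -0.53 (SE 0.24, adjusted p = 0.396 by edgeR), and -0.28 with the GC offset. The profiles of these 2 genes were the most alike of any pair of members, with a root mean square difference of 0.25 in centred log2 CPM over the 6 libraries, against up to 1.16 for other pairs (ALDH1A3 and ALDH3A1).

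ALDH3B2, the neighbouring paralog that acts in lipid droplets in the mouse, had log2 fold changes above 0. It had 20.7, 36.1 and 48.0 CPM in 8000 Pa replicates 1 to 3 and 15.3, 15.4 and 41.1 CPM in 500 Pa replicates 1 to 3. Each stiff-gel library was above the soft-gel library of its own number, by 0.43, 1.22 and 0.22 in log2 CPM, but replicate 3 on soft gel was above replicates 1 and 2 on stiff gel. Of all tested genes, 14.6% were higher at 8000 Pa in all 3 pairs. The paired fit gave 0.62 (SE 0.26, adjusted p = 0.325 by edgeR). With the GC offset the paired fit gave 0.87 (SE 0.20, adjusted p = 0.0432 by edgeR), the only setting in which a member passed by stiffness. In that setting 71 of all tested genes passed. ALDH3A1 lies on chromosome 17 (19737984 to 19748943, minus strand). The 3 ALDH3 genes have transcripts of 59.5% to 59.7% GC, the highest of the 10 genes.

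ALDH3B1 and ALDH3B2 lie on chromosome 11, from 68008578 to 68029282 on the plus strand and from 67662162 to 67681200 on the minus strand. Only 35 of the 6837 distinct 50-base runs of ALDH3B1 transcripts (0.512%) also occur in ALDH3B2, and they are 1.085% of the 3225 in ALDH3B2, so few reads of that length could fit both. Within a library, where scaling cancels, there were 1.60, 1.25 and 1.24 reads of ALDH3B1 for each read of ALDH3B2 in 8000 Pa replicates 1 to 3. The same ratio was 4.59, 2.36 and 2.51 in 500 Pa replicates 1 to 3. All 3 stiff-gel libraries thus had a lower ratio than all 3 soft-gel libraries, with means of 1.37 ± 0.203 at 8000 Pa and 3.15 ± 1.25 at 500 Pa (SD, n = 3 each). The ratio was chosen after the values were seen and is given without a test. It is not corrected for length, and ALDH3B1 has 6.626 kb of exon against 3.235 kb for ALDH3B2. Per kilobase, ALDH3B1 was below ALDH3B2 in 8000 Pa replicates 1 to 3, at 5.007, 6.831 and 9.0 against 6.41, 11.15 and 14.83 CPM. In 500 Pa replicates 1 to 3 ALDH3B1 was above ALDH3B2, at 10.59, 5.493 and 15.55 against 4.727, 4.762 and 12.71 CPM.

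ALDH2 (chromosome 12, 111766887 to 111817529, plus strand) was barely detected. It had 5, 1 and 8 reads in 8000 Pa replicates 1 to 3 and 0, 10 and 0 reads in 500 Pa replicates 1 to 3. Summed over each group that is 0.437 CPM at 8000 Pa and 0.295 CPM at 500 Pa, with exact Poisson 95% intervals of 0.239 to 0.733 CPM at 8000 Pa and 0.141 to 0.543 CPM at 500 Pa that cover counting error only. A count of 0 in a 500 Pa library allows up to 3 reads, or 0.167 CPM in replicate 1 and 0.428 CPM in replicate 3. In GENCODE 29, 9.15% of the 50-base runs of ALDH2 transcripts also occur in other genes, and 680 exon bases overlap AC002996.1 on the same strand; how reads that fit several genes were counted is not given in the sources used here.

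CD44, the hyaluronan receptor, had the smallest SD of log2 CPM over the 6 libraries of the 10 genes, 0.192. It had 1087, 1179 and 1054 CPM in 8000 Pa replicates 1 to 3 and 1006, 1066 and 798 CPM in 500 Pa replicates 1 to 3, with groups that overlapped by the 1066 CPM of soft-gel replicate 2. Means were 1107 ± 64.8 CPM at 8000 Pa and 957 ± 140.4 CPM at 500 Pa (SD, n = 3 each), and the paired log2 fold change was 0.22 (SE 0.24, adjusted p = 0.846 by edgeR). The gene spans 35138870 to 35232402 on the plus strand of chromosome 11, and gene counts do not separate the standard and variant CD44 isoforms.

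CD24, on the minus strand of chromosome 6 (106969831 to 106975627), had 174, 244 and 124 CPM in 8000 Pa replicates 1 to 3 and 161, 205 and 198 CPM in 500 Pa replicates 1 to 3. The stiff-gel libraries held both the highest and the lowest value, and the paired log2 fold change was -0.10 (SE 0.23, adjusted p = 0.947 by edgeR). Of its 50-base runs 4.95% occur in other annotated genes, most of them (3.62%) in the processed pseudogene CD24P4. Reads of CD44 outnumbered those of CD24 by 6.23, 4.83 and 8.48 times in 8000 Pa replicates 1 to 3 and by 6.27, 5.19 and 4.03 times in 500 Pa replicates 1 to 3. This count ratio averaged 6.52 ± 1.84 at 8000 Pa and 5.16 ± 1.12 at 500 Pa (SD, n = 3 each), and the groups overlapped. It is not corrected for length, and CD44 has 10.0 kb of exon against 3.10 kb for CD24. Per kilobase over the 6 libraries, CD44 averaged 103 CPM and CD24 59.5 CPM.

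EPCAM, the epithelial adhesion molecule, on the plus strand of chromosome 2 (47345158 to 47387601), had 344, 244 and 167 CPM in 8000 Pa replicates 1 to 3 and 213, 309 and 138 CPM in 500 Pa replicates 1 to 3. Replicate 3 was the lowest library of each group, and the difference within pairs was 0.69, -0.34 and 0.27 in log2 CPM. The paired log2 fold change was 0.21 (SE 0.23, adjusted p = 0.844 by edgeR). By replicate number EPCAM had an adjusted p of 0.0295 by edgeR, and of 0.0728 with the GC offset.

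PROM1 (chromosome 4, 15963076 to 16084378, minus strand) was present at trace level, and 166 bases of its exons overlap FGFBP2 on the same strand. It had 40, 38 and 12 reads in 8000 Pa replicates 1 to 3, or 3.19, 4.01 and 1.195 CPM, and 20, 11 and 11 reads in 500 Pa replicates 1 to 3, or 1.12, 1.23 and 1.57 CPM. Replicates 1 and 2 on stiff gel were above every soft-gel library and replicate 3 was not. The unpaired log2 fold change was 1.12 (SE 0.55, adjusted p = 1.00 by edgeR) and the paired one 1.03 (SE 0.54, adjusted p = 0.499 by edgeR). Among the members PROM1 was the closest to ALDH1A1 in profile, at a root mean square difference of 0.47 in centred log2 CPM over the 6 libraries.

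The genes outside the members whose profile was most like that of ALDH1A1, which also had the largest SD of log2 CPM among the tested members, were CYP4X1 and SYTL2 at 0.26 and CP at 0.27. CYP4X1 encodes a cytochrome P450, SYTL2 a Rab27 effector and CP the ferroxidase ceruloplasmin. The measure is the root mean square difference of centred log2 CPM over the 6 libraries, among 8696 genes of at least 5 CPM, whose median was 0.76. CP had 48.7, 32.7 and 28.6 CPM in 8000 Pa replicates 1 to 3 and 18.4, 25.1 and 21.4 CPM in 500 Pa replicates 1 to 3.

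Of the 19 human ALDH genes, 15 were tested and 0 passed by stiffness in the unpaired or the paired edgeR fit. At an unadjusted p under 0.05 there were 3 of 15 unpaired and 6 of 15 paired, where 2.45% and 10.6% of all tested genes were; these 2 shares are the background of the like counts for the lists below. The median log2 fold change of the 15 was 0.25 unpaired and 0.28 paired, with 12 and 11 above 0, against 5901 and 5684 of 11517 genes above 0. ALDH5A1, the mitochondrial succinic semialdehyde dehydrogenase, had the smallest unpaired p after ALDH1A1, at 9.19 ± 2.56 CPM at 8000 Pa and 4.70 ± 1.93 CPM at 500 Pa (adjusted p by edgeR 0.228 for a paired log2 fold change of 1.02, SE 0.37). ALDH1A2, the third retinaldehyde dehydrogenase, and ALDH1L2 had 0 counts in all 6 libraries, and ALDH8A1 had 6 in all. Groups did not overlap for 3 of the 15, each higher at 8000 Pa, which held for 4.02% of all tested genes: ALDH1A1, ALDH7A1, which acts in lysine breakdown, and ALDH9A1, which acts in carnitine synthesis.

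Per kilobase, ALDH1A3 held 40.3%, 49.8% and 26.4% of the summed ALDH family level in 8000 Pa replicates 1 to 3 and 28.3%, 54.6% and 25.6% in 500 Pa replicates 1 to 3 (mean share 38.8% ± 11.8 at 8000 Pa and 36.15% ± 16.02 at 500 Pa, SD; two-sided exact permutation p = 0.9, n = 3 each). It was the largest share in all 6 libraries, followed by ALDH18A1, the first enzyme of proline synthesis, and ALDH9A1. ALDH1A1 held 1.63%, 0.804% and 0.825% at 8000 Pa and 0.487%, 0.432% and 0.550% at 500 Pa, with means of 1.085% ± 0.469 at 8000 Pa and 0.490% ± 0.0594 at 500 Pa (SD, n = 3 each). Its groups did not overlap, and the two-sided exact permutation p was 0.1, the smallest that 3 against 3 libraries can give. The difference in ALDH1A1 share was 0.596 percentage points, and 0.325 without 8000 Pa replicate 1. For ALDH1A3 it was 2.68 points, and -2.80 without 8000 Pa replicate 2, -2.61 without 500 Pa replicate 3, -1.25 without 500 Pa replicate 1, 8.90 without 8000 Pa replicate 3 and 11.9 without 500 Pa replicate 2. There were 50.2, 125 and 64.8 reads of ALDH1A3 for each read of ALDH1A1 in 8000 Pa replicates 1 to 3. In 500 Pa replicates 1 to 3 there were 118, 256 and 94.1, and the groups overlapped. These read ratios are not corrected for length, and ALDH1A3 has 5.77 kb of exon against 2.85 kb for ALDH1A1.

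**Figure D5:**
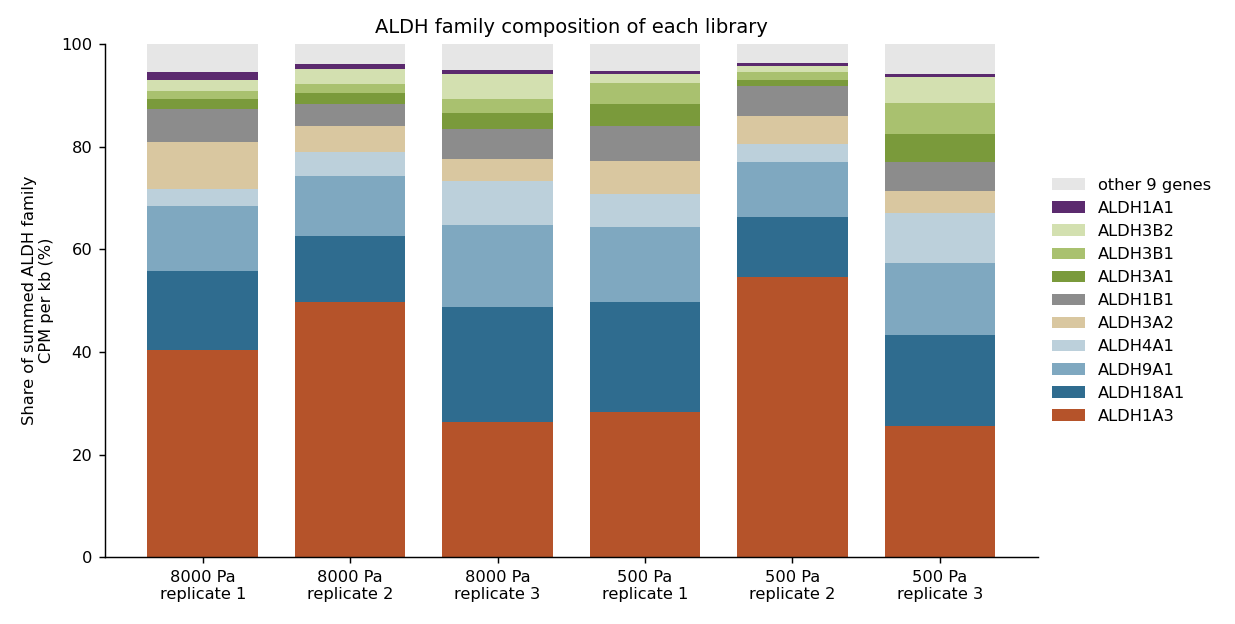
Share of the summed ALDH family level (CPM per kb of exon, %) held by each gene in the 3 libraries at 8000 Pa and the 3 at 500 Pa. ALDH1A3 is the largest band in every library, from 25.6% to 54.6%, and ALDH1A1 stays between 0.432% and 1.63%.

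Genes that make, bind and break down retinoic acid, the product of the ALDH1A enzymes, showed no called change. Of 22 listed, 15 were tested and 0 passed in either edgeR fit (0 unpaired and 4 paired at an unadjusted p under 0.05), with a median log2 fold change of 0.02 unpaired and 0.05 paired. DHRS3, which reduces retinaldehyde back to retinol, was the most abundant of them at 553 ± 213 CPM at 8000 Pa and 836.5 ± 344 CPM at 500 Pa (adjusted p by edgeR 0.318 for a paired log2 fold change of -0.59, SE 0.24). RDH10, which makes retinaldehyde from retinol, had 11.6, 14.3 and 10.1 CPM in 8000 Pa replicates 1 to 3 and 3.52, 8.71 and 9.42 CPM in 500 Pa replicates 1 to 3. The groups did not overlap, but the paired adjusted p by edgeR was 0.298. The retinoic acid hydroxylases CYP26A1 and CYP26C1 had 0 counts in all 6 libraries, while CYP26B1 had 3.31 ± 0.749 CPM at 8000 Pa and 3.39 ± 1.42 CPM at 500 Pa (SD, n = 3 each). By replicate number 6 of the 15 passed, where 14.7% of all tested genes did, and 3 with the GC offset, where 4.19% did. The like counts were 5 and 1 of 15 for the ALDH family, 7 and 0 of 16 for the hyaluronan and CD44 list, 4 and 1 of 11 for the partners of EPCAM, CD24 and PROM1, and 5 and 2 of 13 for the other stem and progenitor markers.

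Among genes of hyaluronan and CD44, 16 of 22 were tested and 0 passed in either edgeR fit (1 unpaired and 5 paired at an unadjusted p under 0.05), with a median log2 fold change of 0.16 unpaired and 0.17 paired. CEMIP, a hyaluronan-degrading protein, had 4.79, 8.02 and 4.58 CPM in 8000 Pa replicates 1 to 3 and 1.73, 3.46 and 1.29 CPM in 500 Pa replicates 1 to 3. All 3 stiff-gel libraries were above all 3 soft-gel libraries, with a paired log2 fold change of 1.47 (SE 0.45, adjusted p = 0.105 by edgeR). ADAM10, a protease that sheds CD44, had 31.3 ± 23.2 CPM at 8000 Pa and 17.1 ± 5.08 CPM at 500 Pa (adjusted p = 0.313 by edgeR, paired). EZR, the CD44-binding linker ezrin and the most abundant of the list, had 636 ± 62.9 CPM at 8000 Pa and 664 ± 42.3 CPM at 500 Pa. The synthases HAS1 and HAS2 had 1 and 6 counts in all, while HAS3 had 1.71 ± 0.508 CPM at 8000 Pa and 1.73 ± 0.684 CPM at 500 Pa (SD, n = 3 each).

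Of 14 partners and relatives of EPCAM, CD24 and PROM1, 11 were tested and 0 passed in either edgeR fit (0 unpaired and 1 paired at an unadjusted p under 0.05), with a median of 0.08 in both. CLDN7, a claudin that binds EPCAM, had 502 ± 167 CPM at 8000 Pa and 704 ± 316 CPM at 500 Pa (adjusted p = 0.511 by edgeR, paired). ADAM17, a protease that cleaves EPCAM, had 35.6 ± 17.3 CPM at 8000 Pa and 24.2 ± 8.95 CPM at 500 Pa (adjusted p = 0.447 by edgeR, paired). CD9, a tetraspanin, was the most abundant at 903 ± 133 CPM at 8000 Pa and 849.6 ± 72.6 CPM at 500 Pa.

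Of 27 other markers of breast stem and progenitor cells, 13 were tested, where 11517 of all 26484 symbols were, and 8 had 0 counts in all 6 libraries: THY1, LGR5, SOX2, SOX10, NANOG, LIN28A, LIN28B and MSI1. Of the tested genes 0 passed in either edgeR fit (0 unpaired and 1 paired at an unadjusted p under 0.05), with a median log2 fold change of -0.08 unpaired and 0.01 paired. ID3, an inhibitor of helix-loop-helix factors, had 31.5 ± 15.2 CPM at 8000 Pa and 47.7 ± 28.8 CPM at 500 Pa (adjusted p = 0.383 by edgeR, paired). ABCG2, the drug efflux pump of the side population, had 15.5 ± 4.70 CPM at 8000 Pa and 11.4 ± 1.86 CPM at 500 Pa (adjusted p = 0.686 by edgeR, paired). The stem cell integrins ITGB1 and ITGA6 and the progenitor factor SOX9, named after their values were seen, averaged 98.8, 59.8 and 63.5 CPM over the 6 libraries. ID1, the relative of ID3, was the most abundant of the list at 105 ± 46.1 CPM at 8000 Pa and 120 ± 58.0 CPM at 500 Pa.

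Of the 12 breast epithelial markers 0 passed in either edgeR fit (3 unpaired and 4 paired at an unadjusted p under 0.05, where 2.45% and 10.6% of all tested genes were). Their median log2 fold change was -0.33 unpaired and paired, with 3 of the 12 above 0 in each. Groups did not overlap for 1 higher and 1 lower at 8000 Pa, where 4.02% and 2.85% of all tested genes did not. By replicate number 4 of the 12 passed, where 14.7% of all tested genes did, and 1 with the GC offset, where 4.19% did. The basal keratin KRT17 had 879.8, 1111 and 1633 CPM in 8000 Pa replicates 1 to 3 and 2405, 1176 and 3157 CPM in 500 Pa replicates 1 to 3 (adjusted p = 0.117 by edgeR, paired), and TP63, the basal factor p63, had 7.60 ± 3.93 CPM at 8000 Pa and 3.66 ± 1.38 CPM at 500 Pa (adjusted p = 0.29 by edgeR, paired). CD14, CD68 and LYZ, the 3 leukocyte markers tested, did not pass, nor did COL1A1, the single fibroblast marker tested. Of 3 endothelial markers tested 2 rose in the paired fit, where 0.26% of all tested genes did, and 0 in the unpaired one, where 0% did (2 at an unadjusted p under 0.05); they were both of them adhesion genes. PECAM1 had 218.5 ± 19.7 CPM at 8000 Pa and 111 ± 30.3 CPM at 500 Pa (adjusted p = 0.00537 by edgeR), and CDH5 10.4 ± 5.71 CPM at 8000 Pa and 2.57 ± 1.27 CPM at 500 Pa (adjusted p = 3.14e-04 by edgeR). The part of these shifts in the values of the members was not tested.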

How the data were processed

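RNA sequencing libraries from MCF10CA1a cells were grouped by the gel stiffness in their labels, 3 at 8000 Pa and 3 at 500 Pa. The authors deposited, per library, whole-number raw counts for 26484 symbols. They also deposited TMM-scaled log2 values, per the file headers, for 8593 genes; over 7257 genes these differed from log2 CPM computed here by at most 0.114 and were used only for that check. The submitters' processing notes name HISAT2, HTSeq 0.11.4, limma, DESeq2 and GRCh38. The sources used here give no strandedness, annotation release or treatment of ambiguous reads.

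Genes were kept by filterByExpr (minimum count 10, minimum total 15), scaled by TMM and tested with edgeR 4.0.16 in R 4.3.3 (quasi-likelihood F test, Benjamini-Hochberg over 11517 genes, FDR 0.05). Each SE of an edgeR fold change was derived from the test, as the absolute log2 fold change divided by the square root of F. Stiffness alone was the main model. The replicate number as a block was the alternative: deviations from group means correlated at 0.409, 0.184 and 0.516 in the same-numbered pairs, each above 0.1 (0.199 at most in pairs of unequal numbers, for 8000 Pa replicate 1 with 500 Pa replicate 2, above the second of these), so equal numbers in the labels were taken as pairs. Fold changes are 8000 Pa over 500 Pa, log2 CPM has a prior count of 2, and lengths, GC content and positions are from GENCODE 29 (95.5% of tested genes matched). The GC offset was a loess curve (span 0.5) per library, and the correlations between libraries were computed without it. No library was a copy of another (chi-square per degree of freedom of 11.0 or more in every pair). The edgeR fits with stiffness alone, with the block and of replicate number were run on simulated counts, drawn with the spread estimated in the paired fit. That run was a check of the code, and no result above rests on it. Value columns belonging to no sample numbered 0. Named genes are all members and, per list, those passing FDR or else the 2 of smallest unpaired p, plus the most abundant. The members and lists were chosen with earlier results of these data known. Other settings were DESeq2 1.42.0, limma-voom (limma 3.58.1), RLE or library-size scaling, no filter, and leaving out libraries.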

Additional observations from a re-analysis of the deposited data

How the results depend on the processing

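Of the tests of stiffness, 0 members passed in 17 of 18 settings. With the GC offset in the paired fit 1 passed (ALDH3B2), where 71 of all tested genes did. ALDH1A1 stayed above 0 in all 18, at 0.95 to 1.57, with an adjusted p by edgeR, DESeq2 or limma-voom of 0.0612 or more. CD44 (0.09 to 0.36), PROM1 (0.68 to 1.65), ALDH3B1 (-0.93 to -0.17) and ALDH3B2 (0.25 to 1.23) also kept their signs. The log2 fold change turned for ALDH1A3 without 8000 Pa replicate 2 (-0.11; 0.92 without 500 Pa replicate 2) and for EPCAM without 8000 Pa replicate 1 (-0.10; up to 0.52 without 500 Pa replicate 2) and in the paired fit (replicate block) without replicate 1 (-0.02). For ALDH3A1 it turned in the paired fit without replicate 1 (0.23) or 3 (0.05), with the GC offset in the paired fit (0.07) and without 500 Pa replicate 3 (0.05; -0.67 without 500 Pa replicate 2). For CD24 it turned with library size alone (0.12), in the paired fit without replicate 3 (0.24) and without 500 Pa replicate 2 (0.01), 500 Pa replicate 3 (0.03) or 8000 Pa replicate 3 (0.17; -0.33 without 8000 Pa replicate 2). Library size alone moved the log2 fold changes of all genes by a median of 0.16, and that of CD24 from -0.06 in the main fit to 0.12. The cause of these turns was not tested.

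Over all genes, 0 passed by stiffness unpaired, 8 with no low-count filter, 7 in DESeq2, 61 with the replicate block, 42 in DESeq2 with the block and 71 with the block and GC offset. The block fits without replicate 1, 2 or 3 called 38, 81 and 12, and leaving out single libraries unpaired gave 0 to 1. By replicate number 1691 genes passed, 483 with the GC offset and 81 (without 8000 Pa replicate 3) to 3690 (without 500 Pa replicate 1) with single libraries left out. Of the members 4 passed, 2 with library size alone, 1 with the GC offset and 0 to 5 with single libraries left out. Over all genes 1712 passed with library size alone. Members passing numbered 5 without 500 Pa replicate 1, 8000 Pa replicate 1 or 8000 Pa replicate 2, where 3690, 1500 and 1359 genes passed. They numbered 0 without 500 Pa replicate 3 or 8000 Pa replicate 3, where 128 and 81 genes passed. Without 500 Pa replicate 2 the member count was 1, where 739 genes passed. The order of levels per length changed for 2 members with the longest transcript as length and for 0 to 3 with single libraries left out (2 without 8000 Pa replicate 2 and 3 without 8000 Pa replicate 3), all among the 3 ALDH3 genes. Depth limits ALDH2 and PROM1, since 3 counts equal 0.167 to 0.428 CPM.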
